A study of Mus musculus with 12 samples.

Results

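The growth hormone, STAT5 and IGF1 axis was followed in the livers of 12 mice through 10 genes. They are Ghr, Jak2, Stat5a, Stat5b, Socs2, Cish, Bcl6, Cux2, Igf1 and Igfals, 10 of the 22170 gene names in the transcript table. All transcripts carrying the name of a gene, 141 for the 10 genes, were pooled, and their values were summed in each liver. Values are FPKM, the fragments of a transcript scaled to its length and to how many fragments the library had mapped, so levels of different genes within a liver can be set side by side.

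The livers came from male C57BL/6J mice that were 21 weeks old and had been fed their diets for 16 weeks, from 5 weeks of age. The ND group received a normal diet and the HFD group a high-fat diet. The CLE group received the same high-fat diet with 1.5% by weight of an ethanol extract of chrysanthemum leaf, and the LU group received it with 0.003% luteolin, a plant flavonoid. The sample titles and the table abbreviate the extract group as CLL, while the protocol text names it CLE, the name used here. Each group held 3 mice, whose numbers in the sample labels are used here as names. According to the study's methods, the mice were fasted before the tissue was taken, and the sequenced livers were picked as representative of larger groups, which limits how far they stand for those groups.

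Growth hormone is secreted by the pituitary in pulses and binds the receptor GHR on hepatocytes. The receptor-bound kinase JAK2 then phosphorylates the transcription factors STAT5A and STAT5B, which enter the nucleus and bind palindromic DNA elements near their target genes. Among the targets are Igf1, whose product is the main circulating growth factor made by the liver, and genes of feedback inhibitors such as Socs2 and Cish. The male pattern of sharp pulses and the female pattern of steadier secretion give rise to many of the differences between male and female liver, in which the repressors BCL6 (higher in males) and CUX2 (higher in females) take part.

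The palindromic element bound by STAT5, TTCNNNGAA, reads the same on both strands, and it was searched in the RefSeq promoter windows of the members (build GRCm38.p6), each holding 250 bases before and 50 after a gene start. A window was found for 9 members (16 windows), Socs2 having no entry. The element lies in 5 of these windows, belonging to Cish, Bcl6 and Igfals, and in 8.3% of all 32851 promoter windows of this length. A match of letters is a description and not a shown binding site. All stretches with a match are printed, these 3 genes being the only members with the element in a window. The element is in capitals, and each stretch is read on the strand of its gene. In Cish (chr9:107296654-107296683) a pair of elements begins at bases 1 and 12 counted from the RefSeq start at position 107296659 of chromosome 9, which lies inside the GENCODE gene. In Bcl6, 3 elements begin 168, 122 and 88 bases before the start at position 23981283 of chromosome 16 (chr16:23981353-23981461), and a single element lies 118 bases before the other start (chr16:23988952-23988980). In Igfals, elements begin 236 bases before the first start (chr17:24877598-24877626) and 58 bases before the second (chr17:24878163-24878191).
Cish, plus strand: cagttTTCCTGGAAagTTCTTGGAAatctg
Bcl6, minus strand: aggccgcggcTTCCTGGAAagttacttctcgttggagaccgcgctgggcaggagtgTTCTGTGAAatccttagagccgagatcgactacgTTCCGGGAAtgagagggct
Bcl6, minus strand, other start: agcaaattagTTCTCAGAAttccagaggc
Igfals, plus strand, first start: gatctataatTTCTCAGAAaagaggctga
Igfals, plus strand, second start: ctgccaggtgTTCCTAGAAgaggccctgg

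Across the 12 livers, Igf1 and Ghr had the highest levels, with means of 256 and 246 FPKM, and their ranges overlapped (207 to 312 and 156 to 335 FPKM). Igfals followed at 42.8 FPKM (31.7 to 55.1), below Igf1 and Ghr in every liver. Socs2 (16.4 FPKM on average), Bcl6 (14.2), Stat5b (13.8), Stat5a (6.33), Cish (5.85) and Jak2 (4.61) came next, and neighbours in this order overlapped. Cux2 stayed between 0.0658 and 0.479 FPKM, below every other member in every liver. With a mean of 0.199 FPKM it was under the limit of 0.5 FPKM set for testing, so 9 of the 10 members were tested.

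**Figure D1:**
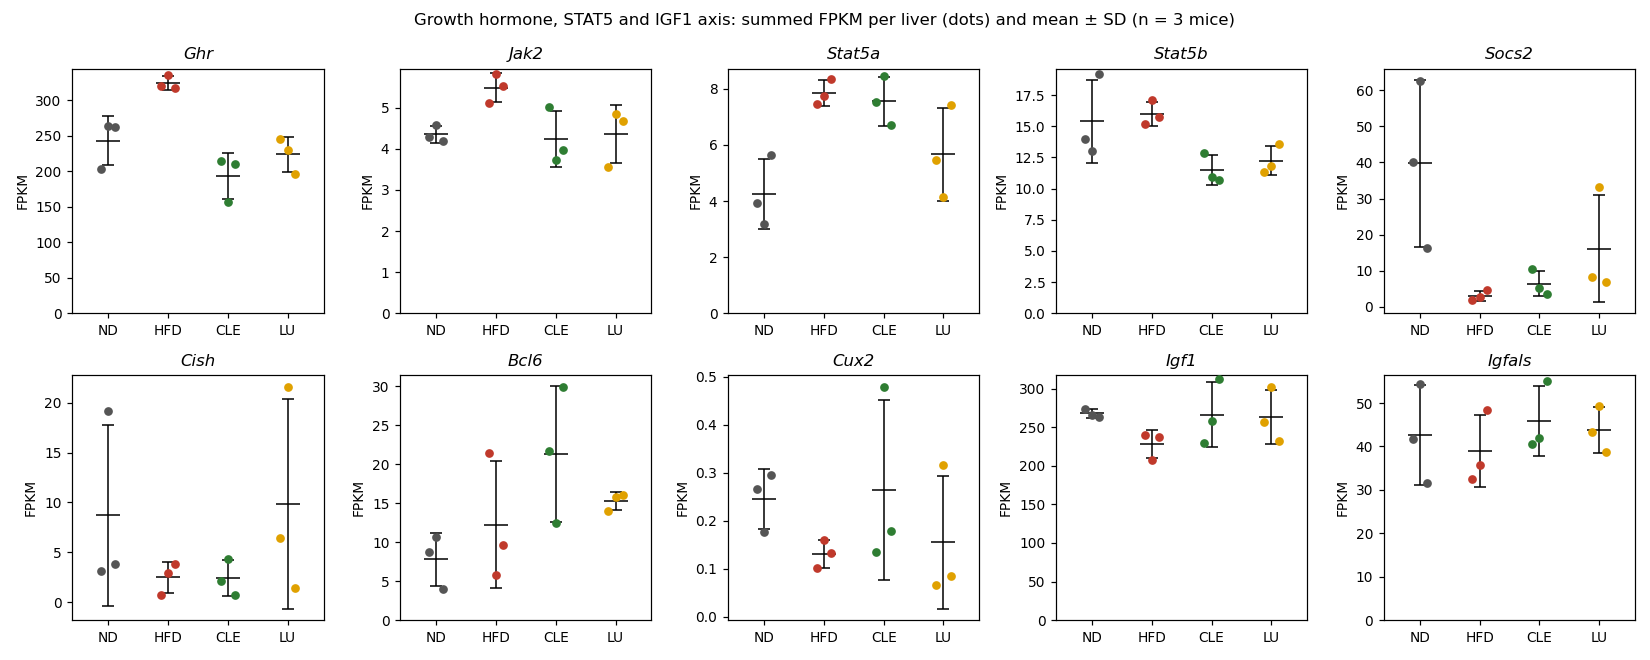
Summed FPKM of each of the 10 genes (vertical axes, each with its own scale) in ND, HFD, CLE and LU livers, with a dot for each mouse and the mean ± SD of 3 mice in black. The 3 HFD dots of Socs2 sit between 2.04 and 4.62 FPKM, below all 3 ND dots (16.3 to 62.6), and the HFD dots of Ghr sit above those of every other group.

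The axis did not move as a block. Between HFD and ND livers, Socs2 fell 12.7-fold and Stat5a rose 1.85-fold in mean FPKM, whereas Igf1 and Igfals showed no difference that passed the test. These were 2 of the 9 tested members, 1 in each direction, where 12.1% of all 11566 tested genes passed (limma on log2(FPKM + 1), Benjamini-Hochberg adjustment over all tested genes at 0.05, as in every comparison here). Between CLE and HFD livers, 1 of 9 passed, Ghr, which was 1.67-fold lower in the CLE group, with 6.03% of all genes passing. Between LU and HFD livers, 0 of 9 passed (limma), where 1.03% of all genes did. At an unadjusted p under 0.05, 5 members and 2346 of all genes passed in that comparison. The HFD livers enter all 3 comparisons, and the comparisons are therefore not independent of each other.

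Set against ND livers, CLE livers differed in 3 of 9 members, with Stat5a and Bcl6 higher and Socs2 lower, where 27% of all genes passed. LU livers differed from ND livers in 0 of 9 members (limma, 2 at an unadjusted p under 0.05), where 14.9% of all genes passed. Between CLE and LU livers, 0 of 9 members passed (limma, 0 at an unadjusted p under 0.05), and 0.00865% of all genes did. Among the 4 groups, limma's F test found 3 of 9 members, Ghr, Stat5a and Socs2, where 24.4% of all genes passed. With 3 mice per group, groups that do not overlap are common. In HFD against ND this held for 36.5% of all tested genes and 5 of 9 members, in CLE against HFD for 31.3% and 3 of 9. In LU against HFD it held for 30% and 5 of 9, in CLE against ND for 42.4% and 4 of 9, and in LU against ND for 40.9% and 1 of 9. Where groups are said below to lie apart, this is a description. The shares of members and of all genes are from few members, and nothing particular to the axis is read from them.

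**Figure D2:**
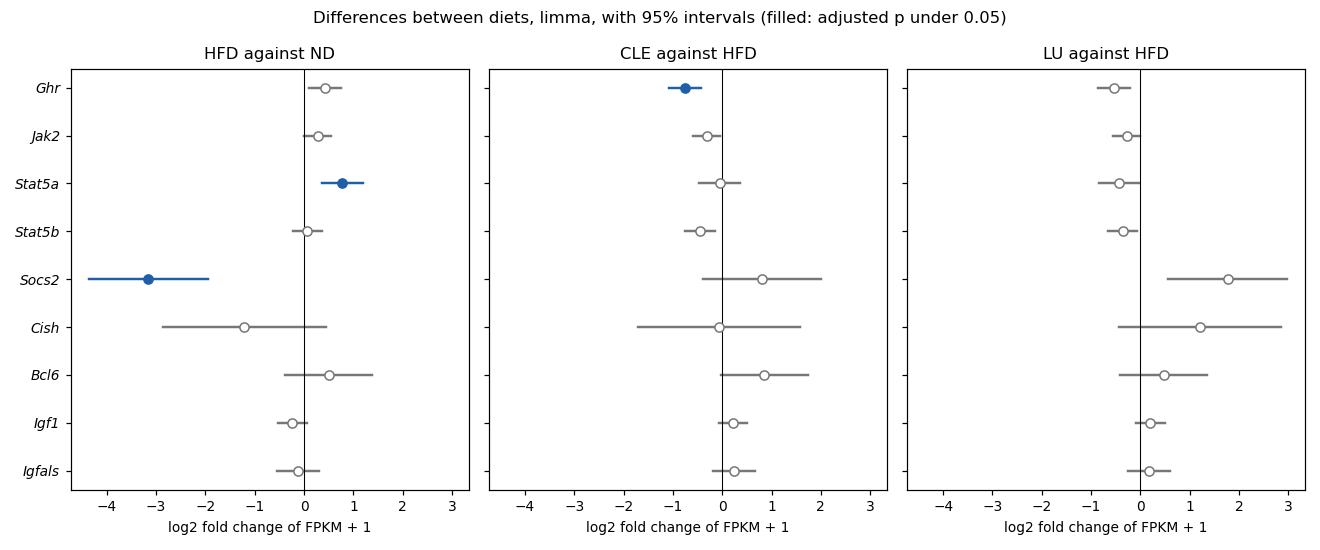
Log2 fold change of FPKM + 1 (horizontal axes) of the 9 tested members in 3 panels, for HFD against ND and then for each supplemented group against HFD, from limma over 12 mice, with 95% intervals as lines and filled dots where the adjusted p is under 0.05. Filled dots are Stat5a (0.78) and Socs2 (-3.16) in the first panel and Ghr (-0.75) in the second, and the third panel has none.

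Ghr (ENSMUSG00000055737, chr15:3317760-3583492, minus strand of GRCm38) encodes the growth hormone receptor, the entry point of the axis. Its levels were 203, 264 and 262 FPKM in ND mice 2, 3 and 4, and 320, 335 and 317 FPKM in HFD mice 12, 15 and 18. In CLE mice 2, 4 and 11 they were 214, 156 and 210 FPKM, and in LU mice 2, 3 and 8 they were 245, 230 and 197 FPKM. All 3 HFD livers lay above all 9 other livers, and the ND, CLE and LU groups overlapped with each other. Ghr fell by 0.75 on the log2 scale from HFD to CLE livers (SE 0.147, adjusted p = 0.0216). The differences between HFD and ND livers (log2 fold change 0.42, SE 0.147, adjusted p = 0.0812) and between LU and HFD livers (-0.54, SE 0.147, adjusted p = 0.0904) did not pass. In bulk tissue, fewer cells of a type and less RNA in each cell cannot be told apart. The summed hepatocyte markers (6 genes, without albumin) were at 9690 to 15700 FPKM in CLE livers and 8600 to 10800 FPKM in HFD livers. This sum rests mainly on Apoa1 (means of 6775 FPKM in CLE and 3708 FPKM in HFD livers) and Ttr (3504 and 4043 FPKM). The single markers went in both directions, from a log2 fold change of -0.48 for Cps1 (adjusted p = 0.11) to 0.84 for Apoa1 (adjusted p = 0.0368). The part that the share of hepatocytes plays in the Ghr values was not tested. The CLE against HFD call was lost without HFD 12 (adjusted p = 0.0604), HFD 15 (0.107), HFD 18 (0.0587) or CLE 4 (0.0695). With single mice left out, its log2 fold change stayed between -0.835 and -0.607. Without CLE 4, whose Ghr value is the lowest of all, the HFD against ND and LU against HFD differences passed (0.0359 and 0.035). CLE 4 is in neither comparison, and these log2 fold changes did not move. The shared spread and the adjustment did, so whether Ghr passes depends on the mice in the fit. Over the 25 alternatives, the adjusted p of the CLE against HFD difference ranged from 0.00665 to 0.107, and the log2 fold change of that difference stayed negative.

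Mouse liver makes a long Ghr transcript, which encodes the membrane receptor, and a shorter spliced transcript, which encodes the soluble growth hormone binding protein. The long transcript ENSMUST00000069451 has 11 exons and a coding length of 1950 bases (650 residues), and the short transcript ENSMUST00000110698 has 9 exons and a coding length of 891 bases (297 residues). The short transcript held on average 49.5% of the Ghr sum. It stood at 109, 109 and 131 FPKM in ND livers, 173, 191 and 158 in HFD livers, 95.2, 88.0 and 86.6 in CLE livers and 112, 115 and 95.3 in LU livers. The HFD livers were again above all others, and the CLE livers were below all ND and HFD livers. Tested as the transcript with the highest mean, it was higher in HFD than in ND livers (log2 fold change 0.58, adjusted p = 0.0183), lower in CLE than in HFD livers (-0.94, adjusted p = 0.00665) and lower in LU than in HFD livers (-0.69, adjusted p = 0.0294). The long transcript was at 99.6 ± 18.7 FPKM (SD, n = 3) in ND livers, 121 ± 6.13 in HFD livers, 87.3 ± 27 in CLE livers and 99.7 ± 13.3 in LU livers. The ratio of short to long transcript ranged from 0.931 to 1.37 in ND livers, 1.24 to 1.65 in HFD livers, 0.815 to 1.56 in CLE livers and 0.988 to 1.16 in LU livers, and of these ranges only those of HFD and LU did not overlap. Cufflinks shares fragments out between overlapping transcripts by estimation, so values of single transcripts are less certain than their sum.

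Jak2 (ENSMUSG00000024789, chr19:29251828-29313080, plus strand) encodes the kinase that carries the receptor's signal. It was at 4.36 ± 0.203 FPKM (SD, n = 3) in ND livers, 5.49 ± 0.354 in HFD livers, 4.24 ± 0.69 in CLE livers and 4.36 ± 0.699 in LU livers. The HFD livers (5.11, 5.81 and 5.53 FPKM) were above the other 9, the highest of which was CLE 2 at 5.03 FPKM. No difference passed, with a log2 fold change of 0.28 for HFD against ND (adjusted p = 0.187), -0.31 for CLE against HFD (adjusted p = 0.127) and -0.28 for LU against HFD (adjusted p = 0.24). Without CLE 2, the CLE against HFD difference passed (-0.42, adjusted p = 0.0437). Known transcripts held 25% of the Jak2 sum, the rest being transcripts assembled by the authors.

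Stat5a (ENSMUSG00000004043, chr11:100859351-100885169, plus strand) and Stat5b lie side by side on chromosome 11 and encode the transcription factors that GHR and JAK2 activate. Stat5a was at 3.92, 3.20 and 5.65 FPKM in ND livers and at 7.46, 7.75 and 8.36 FPKM in HFD livers. It was at 7.52, 8.45 and 6.69 FPKM in CLE livers and at 5.46, 4.13 and 7.42 FPKM in LU livers. Every HFD and CLE liver was above every ND liver, and the LU livers spanned the space between. Stat5a rose by 0.78 on the log2 scale from ND to HFD livers (SE 0.189, adjusted p = 0.0189), and was higher by 0.72 in CLE than in ND livers (SE 0.189, adjusted p = 0.0168). CLE and HFD livers overlapped (-0.05, 95% interval -0.46 to 0.35, adjusted p = 0.87), and LU livers were below all HFD livers without passing the test (-0.44, adjusted p = 0.224).

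The HFD against ND call of Stat5a was lost without ND 2 (adjusted p = 0.0717), ND 3 (0.0653) or HFD 18 (0.0678), with quantile normalization (0.0548), with known transcripts only (0.053) and with its highest transcript alone (log2 fold change 0.13, adjusted p = 0.912). Its adjusted p over 25 alternatives ranged from 0.0109 to 0.912. The CLE against ND call was lost without ND 3 (0.0588) or CLE 4 (0.0603), with its highest transcript alone (0.0954), with the clock score as a covariate (0.129) and after the GC correction, where its log2 fold change was 0.43 (adjusted p = 0.123).

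Stat5b (ENSMUSG00000020919, chr11:100780731-100850724, minus strand) was the more abundant of the pair in every liver. Its levels were 14.0, 13.0 and 19.2 FPKM in ND livers, 15.1, 17.1 and 15.7 in HFD livers, 12.9, 10.9 and 10.7 in CLE livers and 11.3, 11.8 and 13.6 in LU livers. Every CLE and LU liver was below every HFD liver, whereas ND livers lay on both sides. Its log2 fold changes were 0.07 for HFD against ND (adjusted p = 0.804), -0.44 for CLE against HFD (SE 0.139, adjusted p = 0.0664), -0.36 for LU against HFD (SE 0.139, adjusted p = 0.181) and -0.38 for CLE against ND (adjusted p = 0.0604), and none passed with all mice and the values as deposited. Without CLE 2 the CLE against HFD difference passed (-0.52, adjusted p = 0.0353). The CLE against ND difference passed with median-of-ratios scaling (-0.54, adjusted p = 0.0158), with quantile normalization (-0.49, 0.0249), after the GC correction (-0.66, 0.0128), with known transcripts only (-1.27, 0.00971), and without ND 3 (0.0411) or CLE 2 (0.0398). The LU against ND difference passed after the GC correction (-0.52, adjusted p = 0.0433) and with known transcripts only (-1.48, adjusted p = 0.0084). With the clock score as a covariate, neither difference from ND passed (-0.015, adjusted p = 0.981, for CLE and 0.12, adjusted p = 0.939, for LU). Nor did either pass with the mouse number as a block (-0.395, adjusted p = 0.237, for CLE and -0.296, adjusted p = 0.396, for LU).

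Behind this sum the transcripts of Stat5b were shared out differently in the groups. The annotated transcript ENSMUST00000004143 (19 exons, coding length 2358 bases, 786 residues) was at 7.38, 6.81 and 11.2 FPKM in ND livers and 7.30, 10.2 and 8.56 in HFD livers. It was at 4.90, 2.98 and 2.72 FPKM in CLE livers and 2.39, 1.75 and 3.32 in LU livers. All 6 CLE and LU livers were thus below all 6 ND and HFD livers. Tested as the transcript with the highest mean, it was lower in CLE than in HFD livers (-1.12, adjusted p = 0.0404) and lower in LU than in HFD livers (-1.49, adjusted p = 0.0213). A transcript assembled from the reads that begins inside the locus (position 100818560 on the minus strand) ran the other way in level, at 2.54 ± 1.24 FPKM (SD, n = 3) in the ND group, 3.26 ± 0.945 in HFD, 6.51 ± 0.579 in CLE and 8.16 ± 1.18 in LU, and was not tested because it was chosen after its values were seen. The libraries of the CLE and LU groups also differed from the others in their relation to GC content (Spearman correlation of a library's deviation with the GC content of genes from 0.16 to 0.48, against -0.37 to -0.14 in ND and HFD libraries), and this difference cannot be told apart from the treatments.

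**Figure D3:**
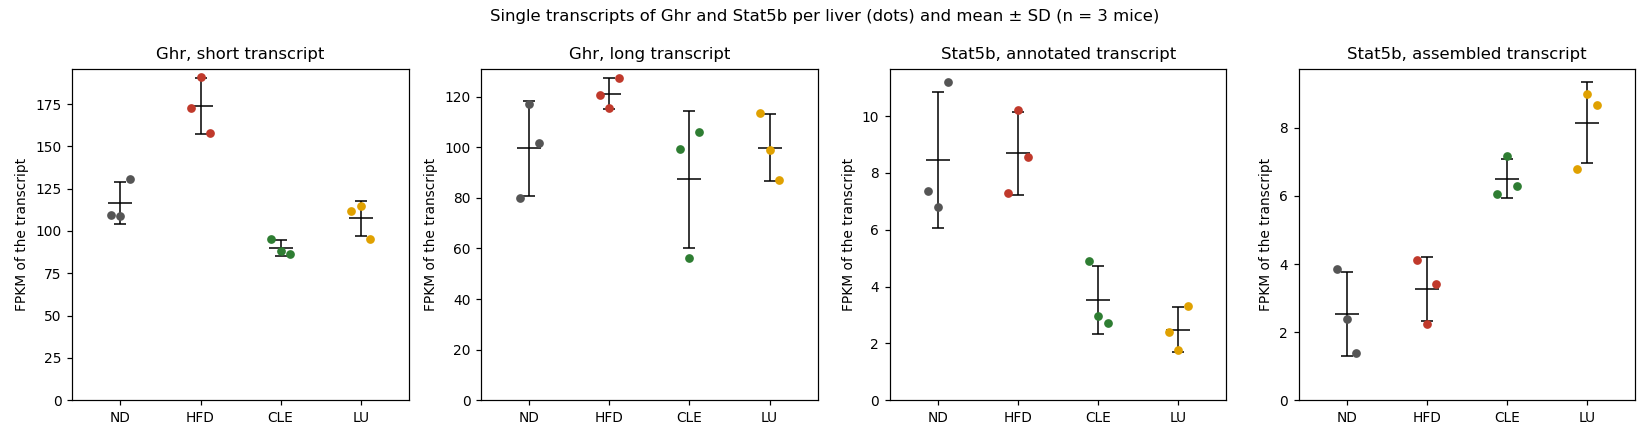
FPKM of single transcripts (vertical axes) of Ghr and Stat5b in ND, HFD, CLE and LU livers, with a dot for each mouse and the mean ± SD of 3 mice. The short Ghr transcript is highest in the HFD group (158 to 191 FPKM), and the annotated Stat5b transcript is at 1.75 to 4.90 FPKM in CLE and LU livers against 6.81 to 11.2 FPKM in ND and HFD livers, while the assembled transcript is higher in CLE and LU.

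Socs2 (ENSMUSG00000020027, chr10:95385362-95417180, minus strand) is a direct STAT5 target whose product marks GHR for degradation and so limits the signal. It had the largest fitted change between ND and HFD livers of the 9 tested members, at 40.3, 62.6 and 16.3 FPKM in ND livers and 2.04, 2.72 and 4.62 FPKM in HFD livers. The means of the supplemented groups lay between, with 10.5, 5.25 and 3.70 FPKM in CLE livers and 8.34, 33.2 and 6.89 FPKM in LU livers. CLE and HFD livers overlapped, CLE 11 being below the highest HFD liver. HFD and CLE livers were all below the ND livers, LU livers were all above the HFD livers, and LU 3 alone reached into the ND range. From ND to HFD livers Socs2 fell by 3.16 on the log2 scale (SE 0.556, 95% interval -4.36 to -1.96, adjusted p = 0.00343). It passed in all 25 alternatives tried for this comparison, with adjusted p from 0.000724 to 0.0202. CLE livers were lower than ND livers by 2.35 on the log2 scale (-2.35, SE 0.556, adjusted p = 0.0115), a call lost with the clock score as a covariate (-3.63, adjusted p = 0.0802).

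Neither supplement gave a Socs2 difference from the HFD group that passed the test. The log2 fold change was 0.81 for CLE against HFD (SE 0.556, 95% interval -0.4 to 2.01, adjusted p = 0.349) and 1.77 for LU against HFD (SE 0.556, 95% interval 0.57 to 2.97, adjusted p = 0.123). Without LU 3 the latter was 1.10. The LU against ND difference (-1.39, adjusted p = 0.1) passed without LU 3 (-2.06, adjusted p = 0.0292).

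Cish (ENSMUSG00000032578, chr9:107296026-107302784, plus strand), the gene with the paired elements printed above, encodes another STAT5-induced inhibitor of the same family. Its levels varied widely within groups, at 3.08, 19.2 and 3.86 FPKM in ND livers, 0.745, 2.88 and 3.80 in HFD livers, 2.09, 4.35 and 0.727 in CLE livers and 6.44, 21.6 and 1.40 in LU livers. A single mouse in each of ND and LU was far above its group. The groups overlapped in every comparison with HFD, and none passed, with log2 fold changes of -1.21 for HFD against ND (SE 0.76, adjusted p = 0.335), -0.06 for CLE against HFD (adjusted p = 0.966) and 1.21 for LU against HFD (adjusted p = 0.373). The 95% interval of the HFD against ND difference was wide, from -2.85 to 0.44.

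Bcl6 (ENSMUSG00000022508, chr16:23965052-23988852, minus strand) encodes a repressor that occupies many of the same elements as STAT5 and that STAT5 itself represses. It was at 8.69, 10.7 and 4.05 FPKM in ND livers, 21.4, 5.80 and 9.60 in HFD livers, 21.8, 12.5 and 29.9 in CLE livers and 14.0, 15.8 and 16.1 in LU livers. Every CLE and LU liver was above every ND liver, and the HFD livers spanned most of the range. Bcl6 was higher in CLE than in ND livers (log2 fold change 1.35, SE 0.409, adjusted p = 0.0297), and it did not pass for HFD against ND (0.5, adjusted p = 0.471), CLE against HFD (0.85, adjusted p = 0.184), LU against HFD (0.47, adjusted p = 0.525) or LU against ND (0.97, adjusted p = 0.115). The CLE against ND call was lost without ND 2 (adjusted p = 0.0526), ND 4 (0.118), CLE 2 (0.0562) or CLE 11 (0.0968), with no filter (0.0647), with median-of-ratios scaling (0.0522), with known transcripts only (0.138), after the GC correction (0.0647) and with the clock score as a covariate (0.611). Known transcripts held 26.7% of the Bcl6 sum, and 13.5% came from transcripts on the opposite strand. Its highest transcript, assembled from the reads, held 24.2% of the Bcl6 sum. That transcript was at 0.288 to 0.403 FPKM in ND livers and at 1.49 FPKM or more in every other liver. Tested on its own it was higher in HFD (1.32, adjusted p = 0.0286), CLE (2.38, adjusted p = 0.00264) and LU livers (1.94, adjusted p = 0.00684) than in ND livers. The other Bcl6 transcripts did not all follow it, and values of single transcripts are less certain than the sum.

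Cux2 (ENSMUSG00000042589, chr5:121856366-122050102, minus strand), the repressor that marks female liver, was at 0.246 ± 0.0621 FPKM (SD, n = 3) in ND livers, 0.131 ± 0.0291 in HFD livers, 0.264 ± 0.188 in CLE livers and 0.155 ± 0.139 in LU livers. It was not detected above 0.479 FPKM in any of these male livers. All 3 HFD livers (0.101 to 0.16 FPKM) were below all 3 ND livers (0.176 to 0.296), at levels too low to be tested.

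Igf1 (ENSMUSG00000020053, chr10:87858265-87937042, plus strand) encodes insulin-like growth factor 1, the hormone through which the liver carries much of growth hormone's effect on growth. Its levels were 274, 266 and 263 FPKM in ND livers, 239, 207 and 237 in HFD livers, 229, 258 and 312 in CLE livers and 257, 301 and 232 in LU livers. The HFD livers were all below the ND livers, with an HFD mean of 0.851 times the ND mean. Igf1 had a log2 fold change of -0.23 between HFD and ND livers (SE 0.132, 95% interval -0.52 to 0.05, adjusted p = 0.28), 0.21 between CLE and HFD livers (adjusted p = 0.293) and 0.2 between LU and HFD livers (adjusted p = 0.393). None passed. The interval of HFD against ND for Igf1 lies apart from that for Socs2 (-4.36 to -1.96), so the hormone gene and the feedback gene differed in the size of their change.

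The Igf1 sum was spread over several known transcripts. The longest, ENSMUST00000095360 (7052 bases of exon), was at 69.6, 72.0 and 63.8 FPKM in ND livers, 38.1, 38.3 and 48.1 in HFD livers, 47.8, 36.7 and 50.2 in CLE livers and 40.2, 46.7 and 44.5 in LU livers. It was chosen after its values were seen and is given as a description, in which all 9 livers of mice on the high-fat diets were below the 3 ND livers. ENSMUST00000122100 (651 bases) was at 44.4 to 54.3 FPKM in ND livers, 26.8 to 50.1 in HFD livers, 59.7 to 87.2 in CLE livers and 52.4 to 78.3 in LU livers.

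Igfals (ENSMUSG00000046070, chr17:24865997-24882010, plus strand) encodes the acid-labile subunit, which holds IGF1 in a long-lived complex with IGFBP3 or IGFBP5 in the blood. It was at 42.7 ± 11.4 FPKM (SD, n = 3) in ND livers, 38.9 ± 8.32 in HFD livers, 45.9 ± 8.01 in CLE livers and 43.8 ± 5.39 in LU livers, and all groups overlapped. The log2 fold change of -0.12 for HFD against ND had a 95% interval of -0.54 to 0.31 (adjusted p = 0.761), and those for CLE against HFD (0.24, adjusted p = 0.436) and LU against HFD (0.18, adjusted p = 0.624) did not pass either.

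The rest of the IGF system, was followed through a list of 16 genes, of which 11 were tested. Between HFD and ND livers 3 rose and 3 fell, where 12.1% of all tested genes passed (median log2 fold change 0.06, against 0.11 for all tested genes). Igfbp1, a binding protein induced by fasting and low insulin, fell from 191 ± 108 FPKM (SD, n = 3) to 35.2 ± 10.2 (-2.23, adjusted p = 0.00487). Irs2, an adaptor of insulin and IGF signalling, fell from 11.1 ± 2.18 to 3.35 ± 0.947 FPKM (-1.49, adjusted p = 0.000642), and Igfbp2 fell from 386 ± 94.7 to 150 ± 27.7 FPKM (-1.35, adjusted p = 0.00312). Igfbp3, the carrier that joins IGF1 and the acid-labile subunit, rose from 5.65 ± 0.75 to 12 ± 1.68 FPKM (0.97, adjusted p = 0.00179). The binding proteins thus moved in both directions, while the hormone did not pass the test.

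In the supplemented groups, 2 of these 11 genes were higher in CLE than in HFD livers (median log2 fold change 0.1, against 0.02 for all genes), and 1 was higher in LU than in HFD livers (median 0.15, against -0.02). In these comparisons 6.03% and 1.03% of all genes passed. Igfbp2 stood at 547 ± 177 FPKM (SD, n = 3) in CLE livers (1.83, adjusted p = 0.00289) and at 445 ± 56.3 in LU livers (1.57, adjusted p = 0.0095). Igfbp7 stood at 77.1 ± 5.33 FPKM in CLE livers against 55.6 ± 5 in HFD livers (0.47, adjusted p = 0.038). Igfbp1 remained at 41.5 ± 13.3 and 49.1 ± 12.2 FPKM in CLE and LU livers and passed in neither comparison with HFD. Of 10 fasting-induced genes, Igfbp1 among them, 4 were lower in HFD than in ND livers, where 12.1% of all genes passed. The part that feeding state plays in the Igfbp1 and Irs2 values was not tested.

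Other receptors, kinases and inhibitors around the axis, a list of 20 genes of which 19 were tested, mostly did not pass. Prlr, the prolactin receptor, which belongs to the same receptor family as GHR and also signals through JAK2 and STAT5, rose from 103, 114 and 110 FPKM in ND livers to 202, 195 and 208 FPKM in HFD livers (log2 fold change 0.88, SE 0.104, adjusted p = 0.000223). It was at 133, 107 and 129 FPKM in CLE livers (-0.71 against HFD, adjusted p = 0.00689) and at 149, 136 and 146 FPKM in LU livers (-0.48 against HFD, adjusted p = 0.0481). Prlr was the single gene of this list that passed in HFD against ND, where 12.1% of all genes passed. Socs3, the inhibitor induced mainly by interleukin 6 and STAT3, was at 3.22 ± 0.948, 3.44 ± 0.677, 6.63 ± 2.69 and 10.3 ± 2.86 FPKM (SD, n = 3) in ND, HFD, CLE and LU livers, and it was higher in LU than in HFD livers (1.33, adjusted p = 0.0304). The median log2 fold change of the list was 0.03 for HFD against ND, -0.05 for CLE against HFD and 0.04 for LU against HFD.

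Genes that differ between male and female mouse liver under the control of growth hormone pulses had the largest median change of the 4 lists of genes around the axis. The lists were chosen with earlier results of these data known, so this ranking is a description and not a test. Of 19 male-biased genes, 18 were tested, and 14 were lower and 0 higher in HFD than in ND livers, where 12.1% of all tested genes passed. Their median log2 fold change was -1.39, against 0.11 for all tested genes. Hsd3b5, a steroid dehydrogenase of male liver, was at 45.0, 97.9 and 39.1 FPKM in ND livers and at 0.6, 0.169 and 1 FPKM in HFD livers (-5.19, adjusted p = 0.00185). Slco1a1, an organic anion transporter, fell from 160 ± 11.1 to 15.9 ± 3.92 FPKM (SD, n = 3; -3.28, adjusted p = 0.000108). Serpina1e (-2.52, adjusted p = 0.0237) and Mup21 (-2.12, adjusted p = 0.0017) also fell. Members of the Mup, Serpina1, Cyp4a and Cyp2 families have close copies between which fragments can be shared, and their single values are uncertain. One of the 14, Moxd1, reached the limit of 0.5 FPKM only through the ND livers (1.98 FPKM there and 0.05 FPKM over the other 9 livers), and without it 13 of 17 were lower.

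In CLE livers, 7 of these 18 genes were higher and 0 lower than in HFD livers (median log2 fold change 1.04, against 0.02 for all genes), and in LU livers 4 were higher and 0 lower (median 0.93, against -0.02). Among all tested genes, 6.03% passed in CLE against HFD and 1.03% in LU against HFD. Hsd3b5 stood at 15.8, 8.63 and 44.0 FPKM in CLE livers (3.64, adjusted p = 0.0335) and at 49.4, 55.1 and 3.03 FPKM in LU livers (3.86, adjusted p = 0.048). Cyp4a12b, an arachidonic acid hydroxylase of male liver, was at 16.6 ± 3.45 FPKM (SD, n = 3) in HFD livers, 70.9 ± 11.4 in CLE livers (2.03, adjusted p = 0.000709) and 63.4 ± 17.6 in LU livers (1.85, adjusted p = 0.00137). Serpina1e was higher in CLE livers (2.76, adjusted p = 0.0354) and did not pass in LU livers (2.49, adjusted p = 0.0829). Slco1a1 was higher both in CLE livers (1.90, adjusted p = 0.0187) and in LU livers (1.97, adjusted p = 0.0187). Against ND livers, 4 of the 18 genes were lower in CLE livers (3 of 17 without Moxd1) and 3 in LU livers, where 27% and 14.9% of all genes passed. The HFD libraries are shared by these comparisons, so the opposite signs are not independent observations.

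Of 20 female-biased genes, 10 were tested, and 5 were higher and 1 lower in HFD than in ND livers, where 12.1% of all genes passed. Their median log2 fold change was 0.4, against 0.11 for all genes. Hao2 and Cyp2a4 reached the limit of 0.5 FPKM only through the HFD livers, and Cyp2c69 only through the ND livers. Without these 3, of 7 genes 3 were higher and 1 was lower (median 0.35). Cyp2b9, a cytochrome of female liver, was at 0.105, 0.415 and 1.14 FPKM in ND livers and at 71.0, 113 and 61.2 FPKM in HFD livers (5.74, adjusted p = 0.00012). Ntrk2, a neurotrophin receptor, rose from 0.742 ± 0.13 to 4.59 ± 0.397 FPKM (SD, n = 3, log2 fold change 1.68, adjusted p = 0.000102). Cyp2a4, a steroid hydroxylase, was at 0.17 ± 0.201 FPKM in ND livers and 4.61 ± 0.911 FPKM in HFD livers. This is a description only, because its entry into the test rested on the HFD livers. Cyp17a1, a steroid hydroxylase and lyase, went against the direction of the list and fell from 39.8 ± 4.64 to 4.82 ± 0.883 FPKM (-2.81, adjusted p = 5.9e-06). In CLE livers 5 and in LU livers 4 of the 10 genes were lower than in HFD livers, and 0 were higher in either. Without the same 3 genes it was 3 and 2 of 7, where 6.03% and 1.03% of all genes passed. Cyp2b9 was at 4.01 ± 4.05 FPKM in CLE livers (-4.29, adjusted p = 0.00629) and 5.27 ± 6.47 in LU livers (-4.17, adjusted p = 0.0095). Cyp2a4 was at 0.661 ± 0.462 FPKM in CLE livers and 0.449 ± 0.285 in LU livers, again as a description. Ntrk2 was lower in CLE livers (-1.46, adjusted p = 0.00226). In LU livers it was at 1.78 to 2.56 FPKM, also below all HFD livers (4.13 to 4.87 FPKM). Hao2, a hydroxyacid oxidase listed at 0 in all ND livers, was at 1.58 to 2.44 FPKM in HFD livers. It was at 0.168 to 0.417 FPKM in CLE livers and 0.0766 to 0.303 FPKM in LU livers, also as a description.

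**Figure D4:**
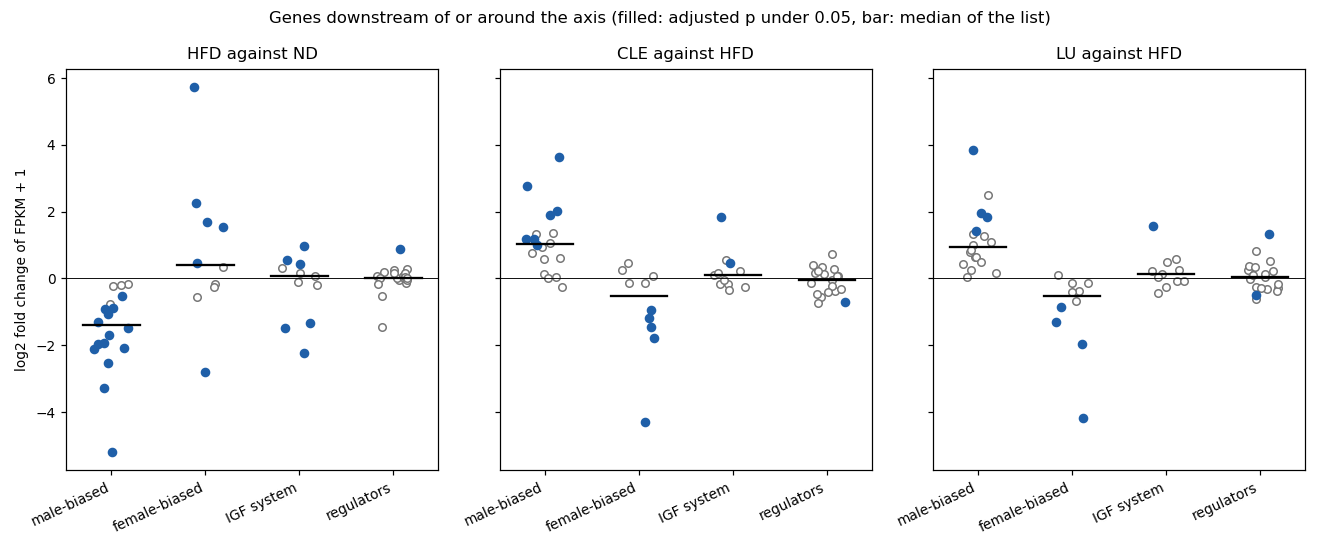
Log2 fold change of FPKM + 1 (vertical axis) of the tested male-biased (18), female-biased (10), IGF system (11) and regulator (19) genes in 3 panels, for HFD against ND and then for each supplemented group against HFD, with a dot for each gene, filled where the adjusted p is under 0.05, and a bar at the median of each list. Most male-biased genes sit below 0 in the first panel (median -1.39) and above 0 in the others (1.04 and 0.93), while the median of the regulators is near 0 in each panel (0.03, -0.05 and 0.04). Moxd1 of the male-biased and Hao2, Cyp2a4 and Cyp2c69 of the female-biased genes reached the limit for testing only through a single group.

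Among all tested genes, the patterns most like those of the 3 members found by the F test were named by Pearson correlation of log2(FPKM + 1) over the 12 livers, as a description. Nearest to Ghr were Car8 (r = 0.97), Ugt3a2 (0.95) and Nqo2 (0.95), and nearest to Stat5a were Agpat9 (0.95), Rnf43 (0.94) and Slc16a5 (0.92). Nearest to Socs2 were Slc25a30 (0.93), Adat1 (0.93) and Rgs3 (0.91). The points share the same 12 libraries and their group differences.

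Several facts of the whole set of libraries bear on these values. The FPKM of transcripts with a gene name summed to 1.7e+06 in ND 4, the lowest, and to 5.58e+06 in CLE 4, the highest. The highest single transcript held 817802 FPKM in ND 4 and 3.5e+06 FPKM in CLE 4. Kupffer cell markers (4 of 6 tested) and stellate cell markers (5 of 6) were higher in HFD than in ND livers, where 12.1% of all genes passed. Their summed levels were 148 to 222 against 101 to 102 FPKM and 144 to 181 against 82.1 to 118 FPKM. The summed hepatocyte markers were at 9790 to 11400 FPKM in ND livers and 11100 to 12700 FPKM in LU livers, beside the HFD and CLE ranges given with Ghr. The adipocyte markers Lep (0.139 to 0.187 FPKM), Adipoq (0.5 to 0.759) and Plin1 (0.14 to 0.338) were higher in every LU liver than in all other livers. Retn and Cidec, also on that list, overlapped between LU and CLE livers. Whether adipose tissue entered the LU samples was not tested. The shares of all genes passing depend on single mice. In CLE against HFD, 698 genes passed, with 27 without HFD 15 and 2192 without CLE 2, and in LU against HFD 119 passed, with 11 without LU 3 and 569 without CLE 4. A score of clock genes lay between -3.28 and -0.336 in ND livers and between -1.13 and 1.84 in all others. With this score as a covariate, Socs2 still passed in HFD against ND (-4.02, adjusted p = 0.00522), and Ghr no longer passed in CLE against HFD (-0.76, adjusted p = 0.0613). Albumin was listed at 0 in 11 of 12 livers, so that a listed 0 need not mean absence. Of the genes passing in HFD against ND, 82.6% were higher with the values as deposited and 55.2% after median-of-ratios scaling, a scaling that moved the median log2 fold change of all genes from 0.11 to -0.01. After it, Stat5a was at 0.64 (adjusted p = 0.0482) and Socs2 at -3.31 (adjusted p = 0.00297), and the direction of Stat5b turned from 0.07 to -0.08.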

How the data were processed

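RNA of 12 mouse livers was sequenced as paired reads of 100 bases. Per the submitters' processing notes, CASAVA 1.8.2, Bowtie2 2.2.3, TopHat2 2.0.12 and Cufflinks 2.2.1 were used. The authors deposited FPKM values of 152210 transcripts, of which 73424 were assembled from the reads. The genome build is not given in the sources used here, and whether the deposited FPKM include the normalization factors named in the methods is not stated. The ends of 87.6% of known transcripts match GENCODE M21 on GRCm38, from which identifiers and positions were taken. Read counts cannot be had from FPKM. Library depth is therefore unknown, counting error is not given, and the number of mice limits the precision.

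Values were summed by the gene name in the table. The 11566 gene names with a mean of at least 0.5 FPKM were tested with limma 3.58.1 (R 4.3.3). The fit used log2(FPKM + 1), that is a pseudocount of 1, allowing for the variance trend, a coefficient for each group, all 12 mice in one fit, two-sided tests and Benjamini-Hochberg adjustment at 0.05. The pseudocount makes fold changes of low genes too small. The fit was tested on simulated data. Sequences came from RefSeq (GRCm38.p6) through Python 3.11.15.

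The members and the lists were chosen with earlier results of these data known. Named were all members and, of the lists of IGF system, regulators, male-biased and female-biased genes, at most 4 of the largest changes in HFD against ND and at most 3 in CLE or LU against HFD among genes that passed. Fasting, clock and cell marker lists are given by counts or sums, and further names, such as single transcripts, single cell markers, Onecut1 and albumin, were chosen after their values were seen.

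The alternatives were median-of-ratios scaling, quantile normalization, a pseudocount of 0.1, a filter at a mean of 5 FPKM or none, only the highest transcript of each gene, known transcripts only, no variance trend, a clock gene score as a covariate, 2 groups alone, each mouse left out in turn, and the mouse number as a block. Sums without antisense and intronic transcripts, sums by M21 gene and a GC correction were added after seeing the data. The deviations of same-numbered mice did not all correlate above 0.1 (-0.259 to 0.183), and the numbers were not taken as pairs.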

Additional observations from a re-analysis of the deposited data

How the results depend on the processing

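Of the 932 recomputed fold changes of members, 859 kept their direction and their side of the threshold, 28 lost and 27 gained a call, and 18 turned their sign. The cause was not tested. Members passing numbered 1 in HFD against ND (in place of 2) with quantile normalization and with known transcripts only, and 3 with the highest transcript (Bcl6, Ghr and Socs2) or with 2 groups alone. In CLE against HFD they numbered 2 with the highest transcript or known transcripts only and 0 with the clock score or with 2 groups alone (in place of 1). In LU against HFD they numbered 2 with the highest transcript and 1 with known transcripts or 2 groups alone (in place of 0). In CLE against ND they numbered 0 with the clock score (in place of 3), 2 without a filter (Bcl6 lost), 2 after the GC correction (Socs2 and Stat5b), and 4 with median-of-ratios scaling (Ghr and Stat5b in place of Bcl6) or quantile normalization (Stat5b added). Among the 4 groups they numbered 1 with the clock score, 2 without a filter and 4 with the highest transcript (in place of 3), and Stat5b took the place of Stat5a under both scalings, known transcripts and the GC correction. In LU against ND they numbered 2 with the highest transcript and 1 with known transcripts, 2 groups alone or the GC correction (in place of 0). Leaving out single mice gave 1 to 3 members in HFD against ND, 0 to 3 in CLE against HFD, 0 to 1 in LU against HFD and in LU against ND, 2 to 3 in CLE against ND and 1 to 4 among the 4 groups.

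Signs turned only in differences that had not passed. Stat5b in HFD against ND was -0.082 with median-of-ratios scaling, -0.049 with quantile normalization and -0.074 after the GC correction, and -0.037 to 0.23 without single mice. With the highest transcript, Stat5a was 0.85 and Igf1 -0.19 in CLE against HFD, and Stat5a was 0.42 and Igf1 -0.13 in LU against HFD. With known transcripts only, Bcl6 was -0.16 in LU against HFD. With the clock score, Stat5a was 0.069 in CLE against HFD, Igfals -0.051 in LU against HFD and Stat5b 0.12 in LU against ND. After the GC correction Igfals was -0.013 in CLE against HFD. Without single mice, Igfals ranged from -0.31 to 0.074 in HFD against ND, Cish from -0.498 to 0.35 and Stat5a from -0.13 to 0.020 in CLE against HFD.

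HFD mice share no number with other groups. With the mouse number as a block, over the 7 mice whose numbers allowed it, 2 members passed in CLE against ND (in place of 3), Stat5a being lost (0.64, adjusted p = 0.0738), and 0 in LU against ND. Deviations of same-numbered mice correlated between -0.259 and 0.183. Over all genes, leaving out single mice gave 658 (without ND 2) to 1677 (without CLE 4) in HFD against ND, 27 to 2192 in CLE against HFD, 11 to 569 in LU against HFD, 1592 to 3683 in CLE against ND, 638 to 2492 in LU against ND and 1052 to 3761 among the 4 groups. With all mice, 1400 passed in HFD against ND, with 645 for the highest transcript, 661 for known transcripts and 416 with the clock score. In CLE against HFD 698 passed, with 127 without a filter, 1095 with quantile normalization, 263 for the highest transcript, 95 with the clock score, 95 with 2 groups alone and 348 after the GC correction. In LU against HFD 119 passed, with 57 without a filter, 16 with the clock score and 274 with 2 groups alone. In CLE against ND 3119 passed, with 46, 1848 and 2018 under the clock score, 2 groups alone and the GC correction, and in LU against ND 1727, with 16 under the clock score. Among the 4 groups 2827 passed, with 1843 without a filter, 1734 for the highest transcript, 286 with the clock score and 1819 after the GC correction. Between CLE and LU 0 to 3 passed, in place of 1. Median-of-ratios scaling moved the share of higher genes from 77.5% to 43% in CLE against ND and from 74.7% to 40.7% in LU against ND. The unknown depth and 3 mice per group set the limit for low genes such as Cux2.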

Other observations

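ND 3 and LU 3 stood above the other mice of their groups in 3 genes, chosen after their values were seen. Both carry the number 3. Their deviations from the group means correlated at 0.183 over all tested genes, above the other pairs of same-numbered mice. The numbers were not taken as pairs. In the clock score ND 3 lay apart from its group (-0.336, against -2.77 and -3.28), and LU 3 did not (1.66, against 1.84 and 0.492). Socs2 was at 62.6 and 33.2 FPKM in ND 3 and LU 3, against 16.3 and 40.3 in the other ND livers and 6.89 and 8.34 in the other LU livers. Cish was at 19.2 and 21.6 FPKM there and at 0.727 to 6.44 FPKM in the other 10 livers. Onecut1, a hepatocyte transcription factor that growth hormone induces, was at 90.3 and 44.9 FPKM there and at 2.25 to 15.5 FPKM in the other 10 livers. In HFD livers, Onecut1 and Cish were lowest in HFD 12 (2.25 and 0.745 FPKM) and highest in HFD 18 (15.5 and 3.80 FPKM). These genes did not order the mice alike in the other groups. In CLE mice 2, 4 and 11, for example, Onecut1 was at 5.75, 2.94 and 3.70 FPKM and Cish at 2.09, 4.35 and 0.727 FPKM.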
